A study of Rattus norvegicus with 4 samples.

Results

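Liver transcripts of Lewis rats were compared between 3 livers that had undergone partial hepatectomy and 1 liver of a naive rat, with 1 RNA-seq library per group. Partial hepatectomy removes part of the liver, and the remnant then grows back. All 4 rats were of the LEWIS strain with the RT1L allotype. The sources used here do not give their ages, their sex or the time from surgery to collection. The hepatectomised rats had received, into a vein, saline (the saline liver), cells labelled ASCs-siRNC (the siRNC liver) or cells labelled ASCs-miR27b (the miR-27b liver). The naive liver is labelled only as a naïve control. The shared change of a gene was defined as the smallest of the 3 log2 differences from naive, taken where all 3 had the same sign and set to 0 otherwise. How far the hepatectomised livers agreed was measured by the gap, the highest minus the lowest of the 3, which does not use the naive library. The deposited table lists 31457 genes, of which 12874 were not at 0 throughout and 9535 passed a filter at about 10 normalized reads. Among these 9535 genes, 350 were at least 2-fold higher than naive in all 3 hepatectomised livers (3.67%) and 100 were at least 2-fold lower in all 3 (1.05%).

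After hepatectomy, liver cells leave quiescence, divide and restore liver mass while the organ keeps up its metabolic work. Kupffer cells, the macrophages of the liver, release cytokines of the IL-6 family early in this process, and hepatocytes answer through the receptor subunit gp130 and the transcription factor STAT3, which also drives acute phase plasma proteins. Stellate cells, sinusoidal endothelial cells and cells from the blood take part in rebuilding the tissue. Livers also run a circadian clock, in which CLOCK and BMAL1 activate genes of period proteins and of D-box binding factors that vary over the day.

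The deposited values give differences between libraries within a gene and no level that can be compared between genes. Differences are therefore given on the log2 scale, as the hepatectomised liver minus naive, and read numbers are added where they could be recovered from the values (1700 of the 9535 genes). The total depth of the libraries was not used here, and the size factors recovered from the table were 1.039 (saline), 1.005 (siRNC), 0.956 (miR-27b) and 0.977 (naive). Each group being 1 library, differences have no replicate check and no SD, and no test was made. The naive library enters all 3 differences, so a gene that is odd in the naive rat only would show up as a shared change. Intervals given with read numbers are exact conditional binomial 95% intervals of the log2 ratio and cover counting error only.

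Genes on the same side of naive in all 3 hepatectomised livers numbered 2857 above (30% of 9535) and 3089 below (32.4%), and 3589 had mixed signs. The median difference over all 9535 genes was -0.009 (saline), -0.003 (siRNC) and -0.027 (miR-27b), so the libraries were centred on naive. Changes of large size were more often upward among the genes that passed the filter. The filter uses the mean of all 4 libraries, 3 of them hepatectomised. It thus admits genes low in naive more readily than genes low in the 3 hepatectomised livers. At 4-fold, 59 genes were higher and 13 lower in all 3, and at 8-fold 9 were higher and 3 lower. The count at 2-fold depends on how low genes are treated: with no filter 567 were higher and 261 lower. Adding 5 normalized reads to every value left 172 higher and 79 lower. Of 77 named genes past 2-fold, 12 did not pass it then: Ctss, Cyp2c7, Lcn2, Lrg1, Lyz2, Nfkbia, Nkd1, Npdc1, Per3, Ppargc1a, RT1-DMa and Tbxas1. For the lower genes, leaving out the siRNC liver gave 170 and leaving out the miR-27b liver 169, because only 2 livers then have to share the change. Values ran on across the 2-fold line. C1qc lay just inside at 1.004 and Plac8 just outside at 0.999, and on the lower side Rnf219 lay just inside at -1.015 and Eml5 just outside at -0.998.

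Single livers gave more genes past 2-fold than the shared set. In the saline liver 570 genes were at least 2-fold higher (5.98%) and 360 lower (3.78%). The siRNC liver had 598 higher (6.27%) and 337 lower (3.53%). Most were in the miR-27b liver, with 807 higher (8.46%) and 378 lower (3.96%). Among the 350 shared higher genes, the median difference from naive was 1.58 (saline), 1.5 (siRNC) and 1.79 (miR-27b). The miR-27b liver was the furthest from naive in 189 of the 350, and the siRNC liver the nearest in 158. Among the 100 shared lower genes these medians were -1.59 (saline), -1.57 (siRNC) and -1.71 (miR-27b).

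The median gap between the 3 hepatectomised livers was 0.52 for the 350 shared higher genes and 0.63 for the 100 shared lower genes, against 0.39 for all 9535. The gap was under 1 in 295 of the 350 and 72 of the 100, and 9.3% of all 9535 genes had a gap of 1 or more. Reads could be recovered for 143 of the shared higher genes, and in 99 of these all 3 counting intervals lay above equality. Of 24 shared lower genes with recovered reads, all 3 intervals lay below equality in 22. These genes were chosen by the same values, and the 3 intervals of a gene share the naive count. The interval counts are thus no separate support for a difference.

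**Figure D1:**
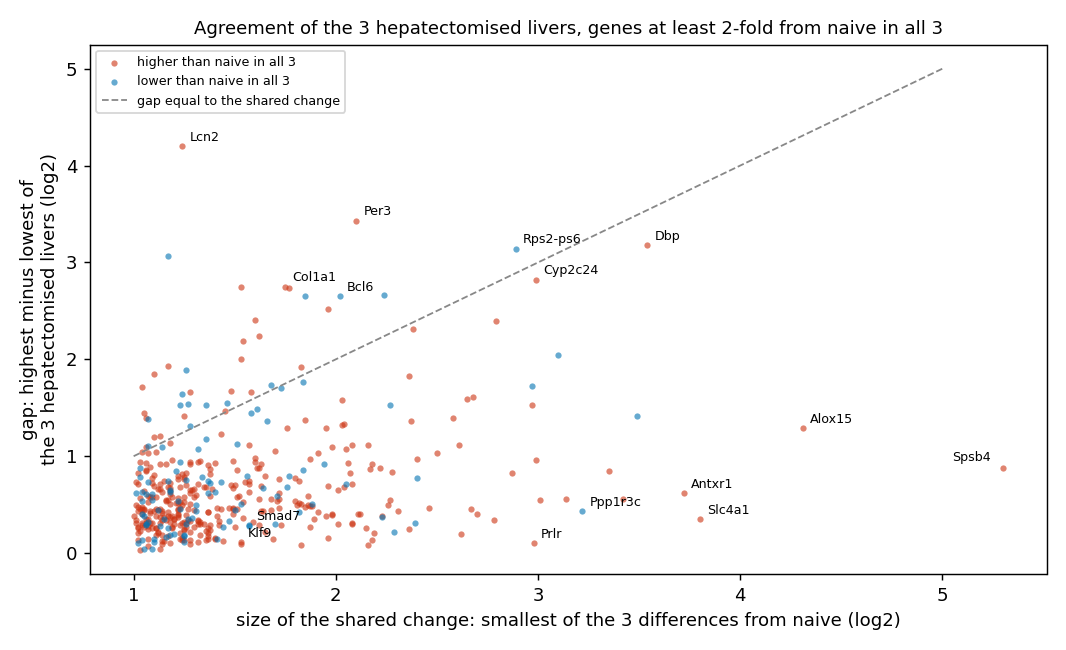
Each point is a shared gene, past 2-fold in every hepatectomised liver, with 350 higher (red) and 100 lower (blue). The x axis gives the size of the shared change and the y axis the gap between the highest and lowest hepatectomised liver, both in log2. Points under the dashed line have a gap smaller than their shared change, and Lcn2 and Per3 lie above it.

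Genes of higher level (a mean of about 50 normalized reads or more) numbered 3304, of which 109 were shared higher and 46 shared lower. Among those of them with a gene name, leaving out LOC, RGD and clone names, the furthest above naive was Alox15, a lipoxygenase that oxygenates arachidonic acid. Alox15 had 112.3 recovered reads in the saline, 81.52 in the siRNC liver and 189.9 in the miR-27b liver, against 4 in the naive liver. Its log2 difference was 4.72 in the saline liver (interval 3.32 to 6.62), 4.31 in the siRNC liver (2.91 to 6.23) and 5.6 in the miR-27b liver (4.22 to 7.49). All 3 hepatectomised livers thus lay more than 16-fold above a naive library with few reads. Antxr1, a collagen-binding membrane protein that also serves as an anthrax toxin receptor, had 127.9 (saline), 187.7 (siRNC) and 180.8 (miR-27b) reads, against 9.139 in naive. Its log2 differences were 3.72 (saline), 4.32 (siRNC) and 4.34 (miR-27b). Osmr, the receptor subunit for oncostatin M of the IL-6 family, lay at 3.14 (saline), 3.38 (siRNC) and 3.69 (miR-27b). The gap between hepatectomised livers was 1.29 for Alox15, 0.62 for Antxr1 and 0.56 for Osmr.

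Fabp4, a fatty acid binding protein of adipocytes and macrophages, was at 2.97 (saline), 3.37 (siRNC) and 4.5 (miR-27b). Cd36, a fatty acid and lipoprotein receptor, was closer together at 2.78 (saline), 2.85 (siRNC) and 3.13 (miR-27b). Cyp2c24, a cytochrome P450 whose reads may be shared with close relatives, had 322.4 (saline), 44.15 (siRNC) and 120.7 (miR-27b) reads, against 5.406 in naive. It stood highest in the saline liver, at 5.81, and lowest among the hepatectomised livers in the siRNC liver, at 2.99. Myo1g, a myosin of blood cells, had 52.71 (saline), 94.08 (siRNC) and 80.05 (miR-27b) reads, against 10.67 in naive, and its shared change was 2.22.

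Furthest below naive among the same named genes was Ppp1r3c, which targets protein phosphatase 1 to glycogen, at -3.4 (saline), -3.65 (siRNC) and -3.22 (miR-27b). Dusp1, a phosphatase that switches off MAP kinases, was at -3.79 (saline), -2.27 (siRNC) and -2.84 (miR-27b). Bcl6, a transcriptional repressor, was lowest in the saline liver, at -4.67, with -2.7 in the siRNC liver and -2.02 in the miR-27b liver. Inmt, a methyltransferase of indoleamines, was lowest in the miR-27b liver, at -4.89, with -2.99 in the saline and -2.24 in the siRNC liver. Ppard, a nuclear receptor for fatty acids, had 31.71 (saline), 31 (siRNC) and 36 (miR-27b) reads, against 119.5 in naive. Its 3 hepatectomised livers were close, with a shared change of -1.7 and a gap of 0.3. The tyrosine kinase gene Ptk6 was also even, at -2.29 (saline), -2.51 (siRNC) and -2.37 (miR-27b). Rps2, a protein of the small ribosomal subunit, was at -3.23 (saline), -2.97 (siRNC) and -4.68 (miR-27b), but a pseudogene copy, Rps2-ps6, moved with it and reads may be split between them.

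**Figure D2:**
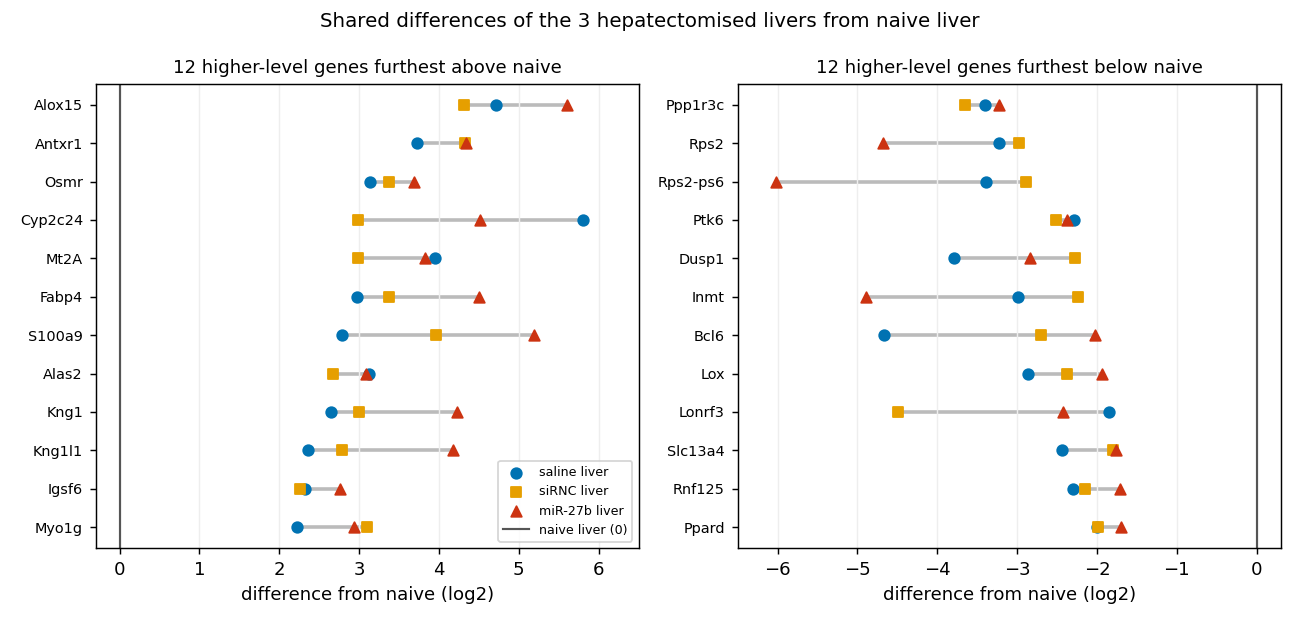
The x axis gives the log2 difference of each hepatectomised liver from naive, which is the vertical line at 0, for the 12 named genes of higher level (no LOC, RGD or clone names) with the largest shared change above (left) and below (right) naive. Grey bars span the 3 livers: they are short for Osmr, Ptk6 and Ppard and long for Cyp2c24 and Rps2-ps6.

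Markers of macrophages and Kupffer cells were higher as a group. Of 25 markers that passed the filter, 24 lay above naive in all 3 hepatectomised livers, 15 of them by at least 2-fold, against 3.67% of all genes. Their median, taken over the middle of each gene's 3 differences, was 1.26, against -0.01 for all genes. Marco, a scavenger receptor, was at 2.5 (saline), 2.01 (siRNC) and 2.65 (miR-27b). Tyrobp, a signalling adaptor of myeloid receptors, was at 1.72 (saline), 1.9 (siRNC) and 2.19 (miR-27b). Cd68, a lysosomal glycoprotein of macrophages, was at 1.51 (saline), 1.61 (siRNC) and 2.09 (miR-27b). Clec4f and Vsig4, both receptors of Kupffer cells, had shared changes of 0.93 and 1.22. Cd14, the lipopolysaccharide co-receptor, was the member of mixed sign, at 0.12 (saline), -0.56 (siRNC) and -0.28 (miR-27b). Timd4 and Stab1 of this list were listed at 0 in all 4 libraries. In a piece of tissue, more cells of a type and more RNA per cell cannot be told apart. Ptprc, the pan-leukocyte phosphatase CD45, had 125.8 (saline), 136.9 (siRNC) and 131.3 (miR-27b) reads, against 45.63 in naive. Its hepatectomised livers differed by only 0.18, and each stood above naive by 1.37 or more.

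Genes of MHC class II, which presents peptides to CD4 T cells, were higher too, with a median of 1.35. Of 9, 8 lay above naive in all 3 livers (30% of all genes) and 4 by at least 2-fold (3.67%). RT1-DMb, a chaperone of peptide loading, was at 2.14 (saline), 1.87 (siRNC) and 2.03 (miR-27b). RT1-Ba, a class II alpha chain, was graded, at 1.18 (saline), 1.71 (siRNC) and 2.32 (miR-27b). Cathepsin S (Ctss), which is in both this list and the macrophage list, had a shared change of 1.1. Ciita, the activator of class II genes, was at 0.72 (saline), 1.35 (siRNC) and 2.12 (miR-27b). Of 13 neutrophil markers 2 passed the filter, and 7, among them Mpo and Elane, were listed at 0. S100a9, a calcium-binding protein of neutrophils and monocytes, had 99.54 (saline), 216.8 (siRNC) and 483.7 (miR-27b) reads, against 13.57 in naive. Of 18 T, NK and B cell markers 4 passed the filter and none was 2-fold higher in all 3. The perforin gene Prf1 had 4 reads in the saline, 14 in the siRNC liver and 28.6 in the miR-27b liver, against 6 in naive.

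Red cell genes formed the next group. Of 16 such genes, 8 passed the filter, and 6 of these were at least 2-fold higher in all 3 livers (3.67% of all genes). The median was 2, with 1.96 when no filter was used and 1.73 with a pseudocount of 5. Alas2, the erythroid enzyme that starts haem synthesis, was at 3.12 (saline), 2.67 (siRNC) and 3.08 (miR-27b). Slc4a1, the anion exchanger of red cells, had 50 (saline), 43 (siRNC) and 52 (miR-27b) reads, against 3 in naive. All 4 globin genes of the list lay between 1.72 and 2.36 in every hepatectomised liver. Reads may be shared between the copies of the alpha genes and between those of the beta genes, so these 4 are not 4 separate signals. Rhag and Gata1 of this list were listed at 0. The part of blood left in the tissue in this group was not tested. Genes that take up and break down haem moved the same way, 8 of 10 above naive in all 3, against 30% of all genes. Hmox1, haem oxygenase 1, was at 2.17 (saline), 2.19 (siRNC) and 3.04 (miR-27b), and the haemoglobin scavenger receptor Cd163 at 1.96 (saline), 1.26 (siRNC) and 1.79 (miR-27b). Of 7 haem synthesis enzymes other than Alas2, none was 2-fold apart in all 3 livers.

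Stellate cell and matrix genes came next, with 10 of 32 at least 2-fold higher in all 3 livers (3.67% of all genes). In this list 1 was lower (1.05% of all genes) and the median was 0.91. Tagln, an actin-binding protein of contractile cells, was at 1.91 (saline), 2.62 (siRNC) and 2.95 (miR-27b). Fbn1, a fibre-forming matrix glycoprotein, had 119.3 (saline), 130.5 (siRNC) and 153.1 (miR-27b) reads, against 31.05 in naive. The basement membrane collagen gene Col4a1 was at 1.55 (saline), 1.65 (siRNC) and 2.27 (miR-27b). The gap between hepatectomised livers was 1.03 for Tagln, 0.48 for Fbn1 and 0.73 for Col4a1. It was wider for the fibrillar collagen gene Col1a1, at 1.75 in the saline, 4.5 in the siRNC liver and 2 in the miR-27b liver. Lum, a collagen-binding proteoglycan, was at -0.5 (saline), 4.32 (siRNC) and 0.03 (miR-27b), so it shared no change. Postn, a matrix protein of fibroblasts, likewise stood at 5.37 in the siRNC liver, with 0 in the saline and 0.06 in the miR-27b liver. Lox, the enzyme that cross-links collagen, was the member below naive, at -2.86 (saline), -2.37 (siRNC) and -1.94 (miR-27b). Endothelial markers had 2 of 17 at least 2-fold higher, against 3.67% of all genes. Clec4g and Cdh5 had shared changes of 1.17 and 1.06, and the endothelial markers a list median of 0.6. Their median was 0.1 in the siRNC liver, with 0.6 in the saline and 0.78 in the miR-27b liver, and over members of higher level the list median was 0.02. Of 14 cholangiocyte and progenitor markers 6 passed the filter, and Gpc3, a glypican of fetal liver, was the member 2-fold higher in all 3, with 26 (saline), 13 (siRNC) and 8 (miR-27b) reads, against 2 in naive. Its interval in the miR-27b liver, -0.29 to 5.3, included equality.

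**Figure D3:**
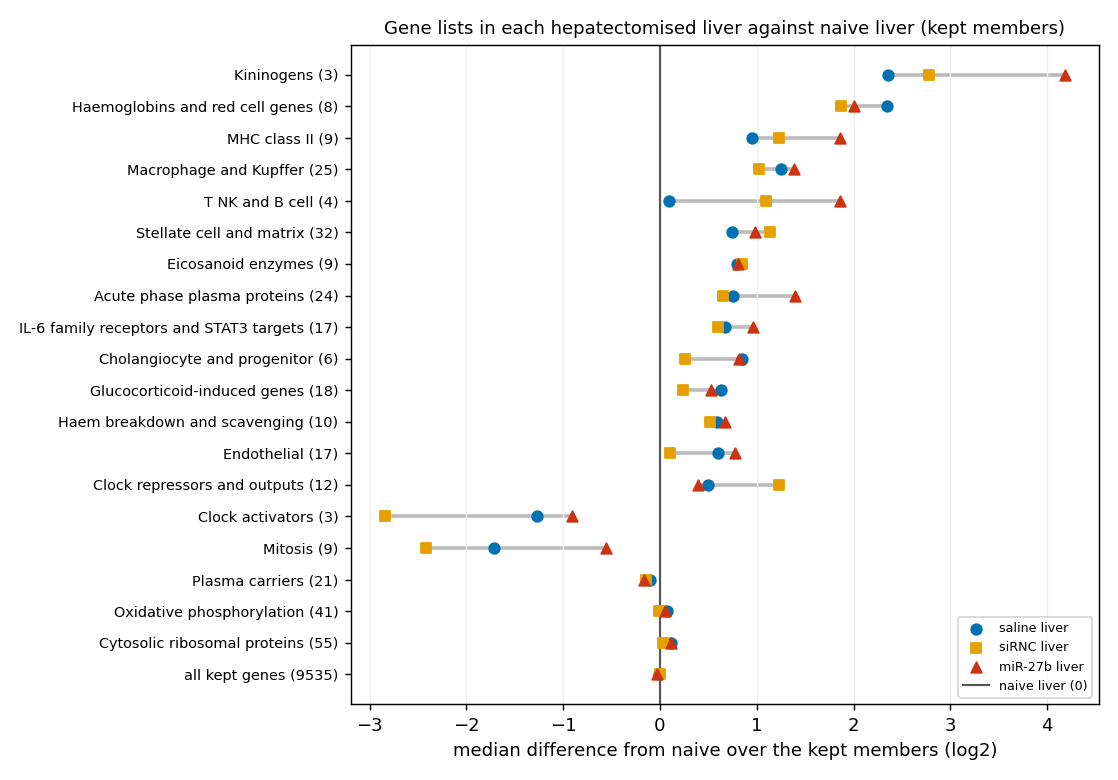
Points give the median log2 difference from naive over the members of each gene list that passed the filter (number in brackets), by liver (saline, siRNC, miR-27b), and the vertical line at 0 is naive. Shown are the lists of at least 3 members whose median over the middle of the 3 livers was 0.5 or more in size, with 3 lists near 0 and all 9535 genes for reference. The macrophage list spans a narrow range in the 3 livers and the kininogens and clock activators a wide range.

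Acute phase genes, most of them for plasma proteins, were mostly above naive. Of 24 measured, 19 lay above naive in all 3 livers, against 30% of all genes, with a median of 0.8. By at least 2-fold 4 were higher, Orm1, Lrg1, Lcn2 and Mt2A, against 3.67% of all genes. Of these, Mt2A is a metallothionein and is described below. Orm1, a plasma glycoprotein that carries basic drugs, was at 1.95 (saline), 2.08 (siRNC) and 3.24 (miR-27b). Lrg1, a leucine-rich plasma glycoprotein, was even, at 1.65 (saline), 1.42 (siRNC) and 1.22 (miR-27b). Lcn2, which binds bacterial siderophores, had 34.45 (saline), 16.5 (siRNC) and 288.5 (miR-27b) reads, against 6.792 in naive. Its gap of 4.2 was far wider than its shared change of 1.24, and its interval in the siRNC liver, -0.21 to 2.68, included equality. Hamp, the iron hormone hepcidin, went the other way, at -0.49 (saline), -1.25 (siRNC) and -5.41 (miR-27b). The 3 kininogen genes, precursors of bradykinin-like peptides, were all at least 2-fold higher, with a median of 2.78. Kng1 was at 2.65 (saline), 3 (siRNC) and 4.23 (miR-27b), and Kng2 at 1.76 (saline), 2.12 (siRNC) and 3.05 (miR-27b). Kininogen reads may be shared between these close copies.

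The IL-6 family receptors and STAT3 targets lay above naive in all 3 livers in 12 of 17 genes, against 30% of all genes. The median was 0.69, and 2 of the 17, Osmr and Cish, were at least 2-fold higher, against 3.67% of all genes. Socs3, the feedback inhibitor of gp130 signalling, was at 2.05 (saline), 0.86 (siRNC) and 2.71 (miR-27b). Stat3 was at 1.29 (saline), 0.62 (siRNC) and 1.65 (miR-27b). Both were lowest in the siRNC liver among the 3. Among IL-1 and NF-kB genes, 2 of 17 were 2-fold higher (3.67% of all genes) and 1 lower (1.05%). The IL-1 receptor gene Il1r1 was at 2.21 (saline), 1.82 (siRNC) and 2.56 (miR-27b). Irak3, an inhibitor of IL-1 receptor signalling, was at 1.54 (saline), 1.4 (siRNC) and 1.55 (miR-27b). Nfkbia, the inhibitor of NF-kB, was the lower member, at -1.21 (saline), -1.18 (siRNC) and -1.1 (miR-27b). The gap was 0.16 for Irak3 and 0.11 for Nfkbia. Alox5ap, which hands arachidonic acid to 5-lipoxygenase, had 18 (saline), 17.96 (siRNC) and 27 (miR-27b) reads, against 4 in naive. Together with Alox15 and the thromboxane synthase gene Tbxas1, it made 3 of 9 eicosanoid enzymes at least 2-fold higher in all 3 livers. Over all genes that share was 3.67%. The shared change of Tbxas1 was 1.72.

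Metallothioneins bind zinc and copper, and their genes are switched on by the zinc-sensing factor MTF1, by glucocorticoids and by STAT3. Mt2A was at 3.95 (saline), 2.99 (siRNC) and 3.82 (miR-27b), and Mt1a at 2.58 (saline), 1.6 (siRNC) and 2.41 (miR-27b). Both were nearest to naive in the siRNC liver. Slc39a4, a zinc importer, was lower, with 111.2 (saline), 94.25 (siRNC) and 95.94 (miR-27b) reads, against 248.1 in naive. Mtf1 itself was at -0.76 (saline), -0.1 (siRNC) and -0.59 (miR-27b). Cish, a target of STAT5 that damps cytokine and growth hormone receptors, had 77 (saline), 140.4 (siRNC) and 20 (miR-27b) reads, against 6 in naive. Prlr, the prolactin receptor, was at 3.08 (saline), 2.98 (siRNC) and 3.03 (miR-27b), a gap of 0.1. Of 10 genes of the growth hormone axis, Cish and Prlr were 2-fold higher in all 3 livers (3.67% of all genes). Bcl6, described above, was 2-fold lower (1.05% of all genes), and 4 had mixed signs (37.6%). The receptor gene Ghr was at -0.25 (saline), 0 (siRNC) and -0.01 (miR-27b), and Igf1 at -0.52 (saline), 0.09 (siRNC) and -0.2 (miR-27b).

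The promoter windows of both metallothioneins and of Cish are shown because they hold many matches to letters of the element of a factor named above. They run from 250 bases before to 50 after the start of the gene in RefSeq on build GRCr8, 5′ to 3′. Capitals mark TGCNCNC, a loose form of the metal response element, in Mt2A (chr19:10838659-10838958, minus strand) and Mt1a (chr19:10832926-10833225, minus strand). In Cish (chr8:116850719-116851018, plus strand) they mark the STAT element TTCNNNGAA. Both were searched on both strands with overlaps allowed. Not every match to TGCNCNC need be a metal response element.
Mt2A: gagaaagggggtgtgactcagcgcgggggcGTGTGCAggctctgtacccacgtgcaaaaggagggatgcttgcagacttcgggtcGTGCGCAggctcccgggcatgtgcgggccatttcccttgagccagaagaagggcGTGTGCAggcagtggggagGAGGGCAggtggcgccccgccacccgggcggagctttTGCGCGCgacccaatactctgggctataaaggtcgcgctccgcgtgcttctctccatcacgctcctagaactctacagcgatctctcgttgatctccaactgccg
Mt1a: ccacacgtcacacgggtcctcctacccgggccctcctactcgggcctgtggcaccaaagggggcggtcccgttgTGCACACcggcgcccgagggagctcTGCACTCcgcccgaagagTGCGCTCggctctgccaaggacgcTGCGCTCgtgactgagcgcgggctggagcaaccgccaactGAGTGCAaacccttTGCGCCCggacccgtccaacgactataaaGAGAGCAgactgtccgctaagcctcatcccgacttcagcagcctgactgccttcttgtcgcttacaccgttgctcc
Cish: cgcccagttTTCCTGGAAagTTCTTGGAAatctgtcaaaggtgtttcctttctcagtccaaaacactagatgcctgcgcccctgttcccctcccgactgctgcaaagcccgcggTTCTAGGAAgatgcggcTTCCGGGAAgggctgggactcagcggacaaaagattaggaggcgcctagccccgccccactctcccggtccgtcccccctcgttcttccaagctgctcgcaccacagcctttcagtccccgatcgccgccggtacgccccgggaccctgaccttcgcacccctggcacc
The Mt2A window holds 5 matches to TGCNCNC, a number reached by 0.913% of the 7554 windows of genes that passed the filter and were matched by gene ID. Mt1a holds 7, reached by 0.0662% of those windows. The window of the clock gene Dbp also holds 5 matches to TGCNCNC and that of Nr1d1 holds 3. Cish holds 4 STAT elements, and no other of the 7554 windows holds as many. Over the shared genes as a whole the shares were near those of other windows. The letters TGCNCNC were in 57.2% of 271 matched windows of shared higher genes and 59.1% of 66 of shared lower genes. They were in 60% of the 7554 and 50.1% of all 27457 windows in the table. A STAT element was in 8.86% of shared higher and 6.06% of shared lower windows, against 7.15% of the 7554 and 8.68% of all windows. A match is only a run of letters and says nothing of binding.

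Clock genes were found on both sides of naive. Of 12 repressors and outputs, 6 lay above naive in all 3 livers (30% of all genes) and 2 below in all 3 (32.4%). Mixed signs were found in 4 (37.6% of all genes). The output factor Dbp, which binds D-box elements, was at 5.13 (saline), 6.72 (siRNC) and 3.54 (miR-27b). Per3, a period gene, was at 4 (saline), 5.53 (siRNC) and 2.1 (miR-27b). Nr1d1, the repressor REV-ERB alpha, was at 1.89 (saline), 1.88 (siRNC) and 1.49 (miR-27b). These 3 were the members at least 2-fold higher in all 3 livers, against 3.67% of all genes. Adding 5 normalized reads to each value brought the shared change of Dbp to 1.12 and that of Per3 to 0.82, which ends its call. Bhlhe40, a repressor, was at -2.25 (saline), -0.99 (siRNC) and -1.64 (miR-27b), just short of 2-fold lower in all 3. The activators were below naive in all 3 livers without reaching 2-fold in each. Arntl, which encodes BMAL1, was at -1.07 (saline), -3.2 (siRNC) and -0.91 (miR-27b). Npas2 was at -1.27 (saline), -2.84 (siRNC) and -0.8 (miR-27b), and Clock at -1.37 (saline), -1.85 (siRNC) and -0.94 (miR-27b). For all 5 of Dbp, Per3 and the 3 activators, the siRNC liver was the furthest from naive and the miR-27b liver the nearest. The sources used here do not give the hour of collection, so the hour and the surgery cannot be told apart. In the windows of Dbp, Per3 and Nr1d1 no E-box (CACGTG), D-box (TTATGNAA) or ROR element (TNGGTCA) was found. These letters were in 10%, 1.85% and 10.1% of the 7554 windows.

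Genes of mitosis that passed the filter were mostly lower than naive. They were 9 of 24, and 8 lay below naive in all 3 livers (32.4% of all genes). By at least 2-fold 2 were lower (1.05% of all genes). The median was -1.71, and -1.56 with no filter. The filter uses the mean of all 4 libraries, so a gene low in the 3 hepatectomised livers could pass through naive alone. Top2a, a topoisomerase of dividing cells, had 14 (saline), 16 (siRNC) and 37.79 (miR-27b) reads, against 106.1 in naive. Cdc20, which starts anaphase, had 5 (saline), 8 (siRNC) and 17 (miR-27b) reads, against 41.62 in naive. The miR-27b liver stood nearest to naive for both. Cenpf, a kinetochore protein, had 3 reads in the saline, 3 in the siRNC liver and 22 in the miR-27b liver, against 24 in naive, so only the saline and siRNC livers were low. Mki67, the marker Ki-67, was at -1.54 (saline), -2.26 (siRNC) and -0.82 (miR-27b). Ccnd1, the cyclin of early G1, was at -0.73 (saline), -2.01 (siRNC) and -2.5 (miR-27b). None of 11 genes of DNA replication was 2-fold apart from naive in all 3 livers. Hgf, the hepatocyte growth factor, was near naive at 0.24 (saline), 0.45 (siRNC) and 0.65 (miR-27b).

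Of 24 genes of the TGF beta family, 2 target genes were at least 2-fold lower in all 3 livers (1.05% of all genes). In this list 1 gene was 2-fold higher (3.67% of all genes). Smad7, which blocks TGF beta receptors, had 59 (saline), 61 (siRNC) and 47.34 (miR-27b) reads, against 176 in naive. Id2, an inhibitor of basic helix-loop-helix factors, had 49.55 (saline), 54.14 (siRNC) and 32.3 (miR-27b) reads, against 163.8 in naive. The shared change was -1.57 for Smad7 and -1.64 for Id2. The ligand gene Tgfb3 was higher, with 27.91 (saline), 39.25 (siRNC) and 29.25 (miR-27b) reads, against 8 in naive. The other 21 of 24 genes of this list did not reach 2-fold in all 3 livers, and the list median was -0.25 (-0.46 over members of higher level). Of 14 pericentral genes and targets of Wnt signalling, 1 was 2-fold higher in all 3 livers (3.67% of all genes) and 2 were lower (1.05%). In that list 6 had mixed signs (37.6% of all genes), and its median was -0.03. The higher member, Nkd1, had 22 (saline), 25.64 (siRNC) and 23 (miR-27b) reads, against 10 in naive. Its interval in the saline liver included equality. Axin2 was at -1.25 (saline), -1.5 (siRNC) and -1.15 (miR-27b), and the transcription factor Tbx3 at -1.36 (saline), -2.89 (siRNC) and -1.39 (miR-27b).

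**Figure D4:**
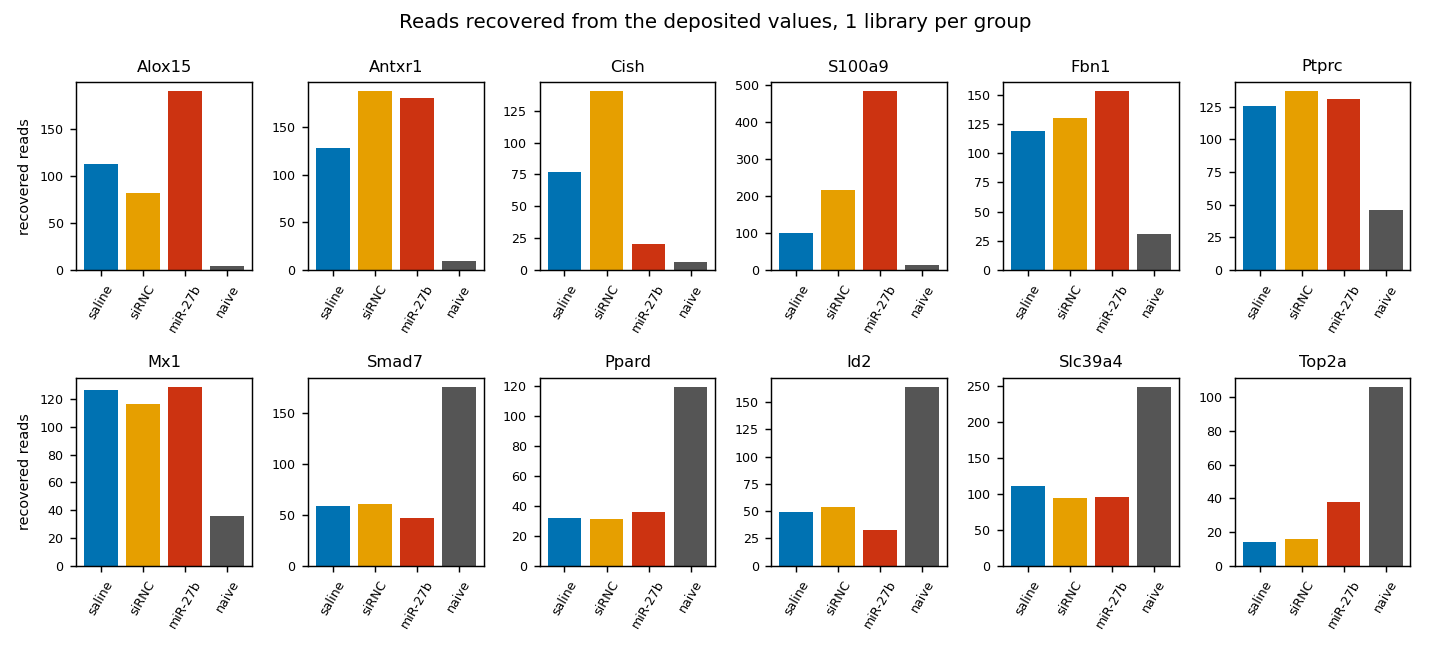
Bars give the reads recovered from the deposited values in the saline, siRNC, miR-27b and naive livers for 12 of the shared genes, each on its own linear axis from 0. In the genes from Alox15 to Mx1 the naive bar is the lowest, and in Smad7, Ppard, Id2, Slc39a4 and Top2a it is the highest.

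In the metabolic lists that follow, most members were not 2-fold from naive in all 3 livers. Over all genes, 3.67% were 2-fold higher in all 3 livers and 1.05% lower. In glycogen metabolism 1 of 13 genes was 2-fold higher, Ppp1r3d, another glycogen-targeting subunit, at 1.27 (saline), 1.47 (siRNC) and 1.62 (miR-27b), and 1 was lower, Ppp1r3c. The interval of Ppp1r3d included equality in the saline liver. Glycogen synthase of liver, Gys2, was even and close to naive at 0.38 (saline), 0.36 (siRNC) and 0.38 (miR-27b). Among 23 genes of triglycerides and lipid droplets, Fabp4 and Cd36 were 2-fold higher and G0s2 lower. G0s2, an inhibitor of the main triglyceride lipase, was at -1.83 (saline), -2.04 (siRNC) and -1.53 (miR-27b). Srebf1, the activator of fatty acid synthesis, shared no change, at -2.12 (saline), 0.04 (siRNC) and -0.67 (miR-27b). Ppargc1a, the coactivator PGC-1 alpha, was at 1.83 (saline), 1.1 (siRNC) and 2.96 (miR-27b). Of 23 drug-metabolising P450 genes, 3 were 2-fold higher in all 3 livers, Cyp2c24, Cyp2c7 and the electron donor Por. Por was at 2.23 (saline), 1.28 (siRNC) and 1.78 (miR-27b). The list median was 0.08. Of 18 genes that glucocorticoids induce, 4 were 2-fold higher in all 3 livers, against 3.67% of all genes. They were Mt2A, Mt1a, Lcn2 and Klf9, a zinc finger factor at 1.64 (saline), 1.53 (siRNC) and 1.59 (miR-27b). Dusp1 was the lower member of that list.

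Plasma carrier genes of hepatocytes and large groups of housekeeping genes had medians close to naive. Among 21 plasma carrier proteins of hepatocytes the median was -0.11, with 1 gene at least 2-fold higher (3.67% of all genes). It was the thyroxine-binding globulin gene Serpina7, at 2.17 (saline), 1.62 (siRNC) and 1.86 (miR-27b). Albumin (Alb) was at -0.05 (saline), -0.08 (siRNC) and 0.08 (miR-27b), and alpha-fetoprotein (Afp) at -0.52 (saline), -0.57 (siRNC) and -0.23 (miR-27b). None of 41 subunits of oxidative phosphorylation, 31 of the proteasome or 29 genes of ribosome biogenesis was 2-fold apart in all 3 livers. Their medians were 0.05, 0.03 and 0.04. Liver transcription factors lay lower, with a median of -0.27. Of 22, 11 were below naive in all 3 livers (32.4% of all genes) and 3 above (30%). By at least 2-fold 2 were lower, Ppard and Tbx3, against 1.05% of all genes. The hepatocyte factor Hnf4a was at -0.43 (saline), -0.76 (siRNC) and -0.71 (miR-27b).

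The agreement of the 3 hepatectomised livers varied widely among named genes. Within the shared genes of higher level, the 8 with the smallest gap relative to the shared change were Klf9, Ms4a6bl, Ptk6, Npdc1, Cerk, Ptprc, Mx1 and Ppp1r3c, with gaps from 0.11 (Klf9) to 0.43 (Ppp1r3c). Cerk, ceramide kinase, had 90.48 (saline), 97.05 (siRNC) and 91.23 (miR-27b) reads, against 33 in naive. Mx1, an interferon-induced antiviral protein, had 127 (saline), 116.5 (siRNC) and 128.8 (miR-27b) reads, against 36 in naive. The gap was 0.15 for Cerk and 0.22 for Mx1. Among genes with wide gaps, Lcn2 (4.2) stood furthest from naive in the miR-27b liver and Col1a1 (2.75) and Cish (2.74) in the siRNC liver.

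A few genes lay on opposite sides of naive. At least 2-fold higher in 1 hepatectomised liver and at least 2-fold lower in another were 15 of the 9535 genes, 6 of them of higher level, and the 5 of these with a gene name follow. Adm, the vasodilator adrenomedullin, was at 1.59 (saline), -2.35 (siRNC) and 2.3 (miR-27b). Zbtb16, a zinc finger factor that glucocorticoids induce, had the same order, at 0.88 (saline), -1.55 (siRNC) and 2.2 (miR-27b). Pnpla3, a lipid droplet acyltransferase and lipase, was below naive in the saline liver alone, at -1.82, with 1.76 in the siRNC liver and 1.29 in the miR-27b liver. Tfrc, the transferrin receptor, had that pattern too, at -1.06 (saline), 0.89 (siRNC) and 1.05 (miR-27b). Egr1, an immediate early factor, was above naive in the miR-27b liver alone, at 1.47, with -1.71 in the saline and -1.42 in the siRNC liver.

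**Figure D5:**
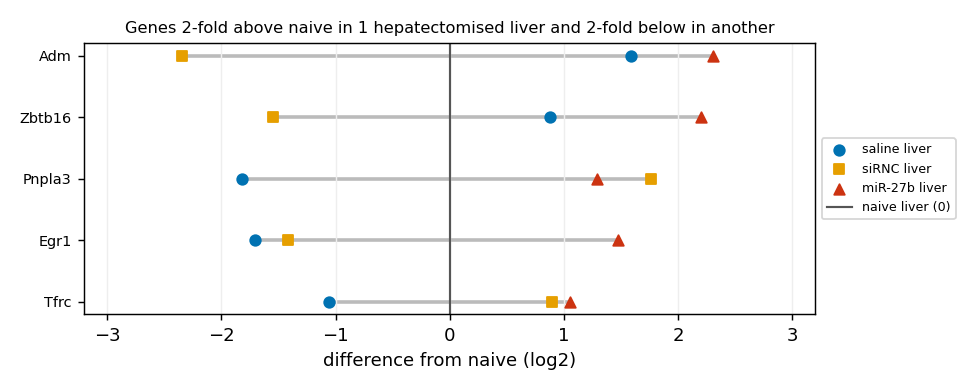
The x axis gives the log2 difference from naive (the line at 0) of the saline, siRNC and miR-27b livers for 5 higher level genes that were at least 2-fold above naive in 1 hepatectomised liver and at least 2-fold below in another. The liver on its own side is siRNC for Adm and Zbtb16, saline for Pnpla3 and Tfrc, and miR-27b for Egr1.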

How the data were processed

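Per the labels' protocols, TruSeq libraries of poly(A)-selected RNA from 4 livers were read on an Illumina MiSeq. The deposited table of the authors holds normalized values on a log2 scale, with negative entries. The submitters' processing notes name DESeq and rat build rn5. For the aligner and the counting tool the sources used here name nothing. Values were read as the log2 of reads divided by a size factor, with a floor of 1, less a baseline of the gene. With this form, reads were recovered for 3695 of the 12874 genes not at 0 throughout. For the others the form was assumed.

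Differences were taken from the deposited log2 values with no pseudocount. Reads were recovered where values matched whole reads or steps of a 101st of a read (57.1% of recovered values whole), with an accepted chance of a false match of 0.01. Elsewhere the level was inferred from the rounding of stored values, with a probability of at least 0.9 of a mean of 10 normalized reads for the filter and 0.75 of a mean of 50 for the higher level. The recovery was tested on simulated data, where 90.7% of the recovered reads were right. The counting intervals do not cover reads that were recovered wrongly. Genes were matched to promoter windows by gene ID (7554 of 9535). Members and the 65 gene lists were chosen with earlier results of these data known, and no list was tested. Genes are named by rule: at higher level and without LOC, RGD or clone names, the 12 furthest on each side, the 8 closest and up to 8 opposite genes (5 were found). Up to 5 and 3 members of lists with 3 or more shared genes and a set of fixed genes were added. Other list members are given by their values, and some chosen genes are left out for length. Python 3.11.15, NumPy 2.4.6, pandas 2.3.3, SciPy 1.17.1 and Matplotlib 3.10.9 were used. Alternatives were another filter, a pseudocount of 5, centring, other thresholds and leaving out each liver.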

Additional observations from a re-analysis of the deposited data

Results flagged for a closer look

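For 6 genes of higher level, of which 5 have a gene name and are given here, the 3 hepatectomised livers lay on opposite sides of naive, at least 2-fold higher in 1 and at least 2-fold lower in another. With 1 library per liver the difference between livers was not tested. The gap between the highest and the lowest hepatectomised liver was 4.65 (log2) for Adm, 3.75 for Zbtb16, 3.58 for Pnpla3, 3.18 for Egr1 and 2.1 for Tfrc.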

How the results depend on the processing

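No paired analysis was possible because each group holds 1 library. The number of genes at least 2-fold higher in all 3 hepatectomised livers was 350, and was 567 with no filter on low levels, 109 among genes of higher level, 172 with a pseudocount of 5, 744 at 1.5-fold and 114 at 3-fold. The number at least 2-fold lower was 100, and was 261 with no filter and 46 among genes of higher level. It was 79 with a pseudocount of 5, 332 at 1.5-fold and 28 at 3-fold. Leaving out each hepatectomised liver gave 388 to 468 higher and 145 to 170 lower genes. The share of genes with the same sign in all 3 livers was 62.4%, and was 58.4% with no filter and 64.8% at higher level. Centring on the median moved no list median by 0.13 or more and no shared change of a named gene beyond its interval (0.13 without recovered reads). A pseudocount of 5 moved 6 of 64 list medians and 53 of 92 named genes, and the mean of the 3 differences in place of the smallest moved 67 of 92. None of the 77 named genes past 2-fold changed sign under the pseudocount, centring or the mean, and 12 no longer passed 2-fold with the pseudocount. The medians of 8 lists changed sign under at least 1 alternative, all of them 0.21 or less from 0 as reported, among them NAD synthesis and use (-0.04, and 0.47 at higher level). For the pseudocount, genes with no recovered reads were set at the low end of their possible level, which shrinks their differences most. Depth limits all low genes: several naive values rest on under 10 reads.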

Other observations

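A family of secreted carrier proteins stood out at the low end and was picked out after its values were seen. Major urinary proteins, also called alpha-2u globulins, are small lipocalins that rat liver secretes for passage into urine. Of 11 genes named so by description or symbol that passed the filter, 10 lay below naive in all 3 hepatectomised livers and 7 by at least 2-fold, against 1.05% of all genes, with a median of -1.37. LOC100912610 was at -4.24 (saline), -3.49 (siRNC) and -4.9 (miR-27b), the largest shared change below naive among the 9535 genes. LOC685482 had 10.99 (saline), 12.96 (siRNC) and 3 (miR-27b) reads, against 108.3 in naive. Mup4 was at -1.67 (saline), -1.26 (siRNC) and -2.01 (miR-27b), and Mup5 at -1.29 (saline), -1.09 (siRNC) and -1.71 (miR-27b). Rup2 was the member above naive, at 0.19 (saline), 0.5 (siRNC) and 0.35 (miR-27b). These genes are near-identical copies, so reads may be shared between them and they do not count as separate signals. The sources used here do not give the sex of the rats, so whether the naive rat differed in sex is not known.

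Genes below the higher level also held large shared changes. Spsb4, which encodes a SOCS box protein, had the largest shared change of the 9535 genes, at 5.9 (saline), 5.3 (siRNC) and 6.18 (miR-27b). Because Spsb4 is below the higher level, differences of this size rest on a low naive value, and their size is uncertain. The endothelin receptor gene Ednra had 11 (saline), 18 (siRNC) and 26 (miR-27b) reads, against 2 in naive. Of 14 genes of NAD synthesis and use, 6 lay above naive in all 3 livers (30% of all genes) and 5 below (32.4%). Mixed signs were found in 3 (37.6% of all genes), and the median was -0.04. Cd38, an NAD-consuming enzyme, was at 2.04 (saline), 1.4 (siRNC) and 2.34 (miR-27b), and Nampt, which starts NAD salvage from nicotinamide, at 1.92 (saline), 1.74 (siRNC) and 1.23 (miR-27b). These 2 were the members at least 2-fold higher in all 3 livers, against 3.67% of all genes, and none was 2-fold lower.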
